A study of Mus musculus with 120 samples.

Results

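Erysipelotrichales is an order of gut bacteria, described here through every 16S sequence variant to which the authors' taxonomy table gives that order. The rule found 132 of 13844 variants, under 17 of the 583 genus names in the table. A sequence variant is one exact sequence of the bacterial 16S ribosomal RNA gene, and its count in a library is a number of amplicon reads. The order's table entries name the family Erysipelotrichaceae for 114 variants and Erysipelatoclostridiaceae for 18, and the class Bacilli for 116 and Erysipelotrichia for 16. Together the 132 variants held 86837 counts, or 1.14% of all counts in the 120 libraries.

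Erysipelotrichales are mostly strictly anaerobic, fermenting Firmicutes of the mammalian gut. Dubosiella and Faecalibaculum were named from mouse isolates, Turicibacter is a common rodent genus known for modifying bile acids and for its response to host serotonin, and Holdemanella and Catenibacterium were described from human stool. One bacterial genome usually carries several copies of the 16S gene that can differ in a few bases, so several variants can come from a single strain.

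The libraries came from the cecal or colonic content of C57BL/6N mice, a common inbred laboratory strain, which were 10 weeks old at the start, had 7 days to acclimatise and were then kept 1 to a cage for 42 days. One arm received antibiotics (ABX), a broad-spectrum cocktail in the drinking water whose agents the labels do not name, and the other arm (chow) sterilised water. Both ate the same irradiated chow, and each arm was split over 5 light cycles, with 0, 8, 12, 16 or 24 hours of light a day (LD0/24, LD8/16, LD12/12, LD16/8 and LD24/0). Every combination of site, arm and light cycle had 6 libraries, except 7 in cecum chow at LD8/16 and 5 in colon ABX at LD8/16, which gave 30 cecum ABX, 31 cecum chow, 29 colon ABX and 30 colon chow libraries. The labels do not tie a library to a mouse, so p-values measure the spread between libraries, and the protocol text speaks of rumen digesta although each sample is labelled as mouse gut content.

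Library totals lay between 39157 and 73076 counts, and a count of 0 in a library allows a share of up to 0.00411% to 0.00766% (3 counts of its total). These limits and the Wilson 95% intervals below cover counting error only, since the labels mention no molecular identifiers. A feature of the whole table bears on the rarer members. In 86 of the 120 libraries, 90 low-level variants of 12 chosen genera outside this order summed to at least 1% of counts. These libraries were clustered by the shares of these variants, and clusters were split until none held more than 8 libraries. The number and sizes of the 12 sets of 3 to 8 libraries thus depend on that rule. Every set crosses the study's groups. Libraries where these variants summed to less were placed in no set. They are the 31 cecum chow libraries, where the sum reached at most 0.829%, with 1 colon chow and 2 cecum ABX libraries.

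Turicibacter and Dubosiella made up most of the order. Turicibacter held 47053 counts in 26 variants, 54.2% of the order, and was found in 96 libraries. Dubosiella held 30755 counts in 45 variants, 35.4% of the order, and was found in 55 libraries. Both genera were thus widespread, but their counts were spread very differently. The single richest library held 14.5% of all Turicibacter counts and the 3 richest 33.4%. For Dubosiella the richest library held 44.7% and the 3 richest 84.2%.

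The other 15 genus names were minor. Erysipelatoclostridium, the genus of the gut anaerobe Erysipelatoclostridium ramosum, held 3314 counts in 65 libraries. Variants placed in the family Erysipelotrichaceae with no genus held 2317 counts, and Candidatus Stoquefichus 1013. Between 86 and 647 counts each were given to Catenibacterium, Faecalibaculum, Erysipelatoclostridiaceae with no genus, Absiella, Erysipelotrichaceae UCG-003, Holdemanella, Allobaculum and Dielma. The Clostridium innocuum group had 37 counts in 6 libraries, and Erysipelotrichaceae UCG-006, Longibaculum and Solobacterium had 2 to 4 counts in 1 cecum chow library each.

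**Figure D1:**
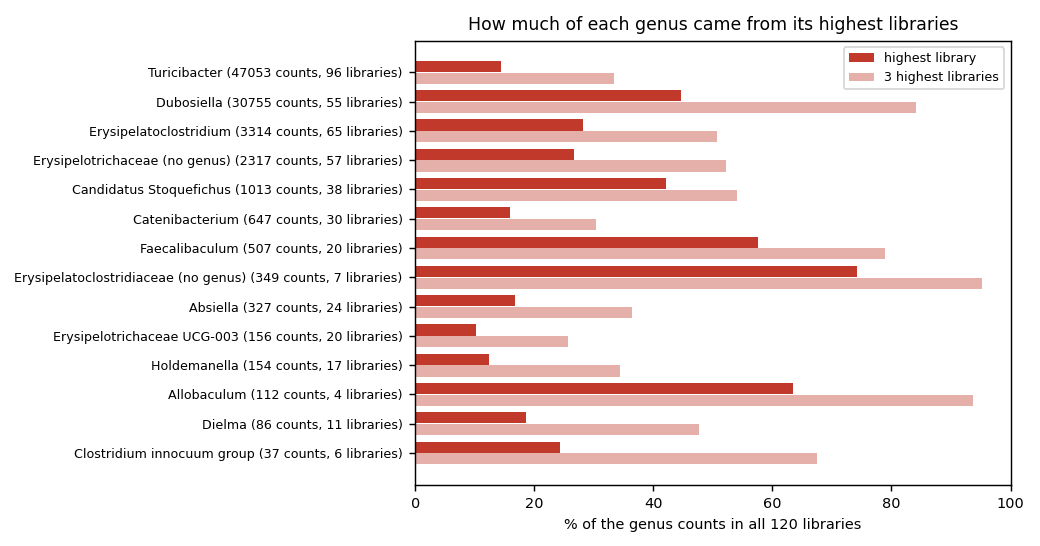
Percent of each genus's counts over all 120 libraries (x axis) that came from its highest library and from its 3 highest libraries, for genera with at least 30 counts (y axis). Dubosiella drew 44.7% from 1 library and 84.2% from 3, against 14.5% and 33.4% for Turicibacter.

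Most variants were rare. The median variant had 20 counts in all, 101 had fewer than 100, and 78 (59.1%) were seen in 1 library. The 2 most abundant, 1 of Turicibacter and 1 of Dubosiella, held 68.7% of the order. By diet, 5 variants were seen with antibiotics alone, the highest at 19 counts, 110 on chow alone and 17 on both.

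The order was scarce in antibiotic-treated mice at both sites. It averaged 0.0307% ± 0.0195 of counts in cecum ABX libraries and 3.07% ± 6.11 in cecum chow libraries (SD, n = 30 and 31). In the colon it averaged 0.0212% ± 0.0170 in ABX and 1.39% ± 1.51 in chow libraries (SD, n = 29 and 30). No ABX library reached 1%, against 15 of 31 cecum chow and 13 of 30 colon chow libraries. The cecum chow mean rested on few libraries: without the 3 highest it was 1.24%, and the median over all 31 was 0.997%. A lower share can stem from fewer bacteria of the order or from more of others, which these counts cannot tell apart.

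Turicibacter was low in the antibiotic-treated libraries. In the cecum its lowest, median and highest counts were 0, 5.5 and 19 in the 30 ABX libraries, against 0, 359 and 6807 in the 31 chow libraries. In the colon they were 0, 9 and 23 in 29 ABX libraries, against 0, 307.5 and 2275 in 30 chow libraries. Every library with more than 23 counts was thus a chow library, though the ranges overlapped, because some chow libraries had few or no Turicibacter. Its share fell with antibiotics, with a log2 fold change of -6.89 ± 0.83 in the cecum (SE, adjusted p = 1.91e-11) and of -5.99 ± 0.68 in the colon (adjusted p = 4.32e-12, edgeR's quasi-likelihood test with Benjamini-Hochberg adjustment over all genera tested, light cycle as a factor).

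Dubosiella, a fermenter of the mouse gut, fell as well. Its lowest, median and highest counts in the cecum were 0, 0 and 12 in ABX libraries, against 0, 23 and 13738 in chow libraries. In the colon they were 0, 0 and 14 in ABX libraries, against 0, 8.5 and 2969 in chow libraries. The genus was detected in 7 of 30 cecum ABX and 26 of 31 cecum chow libraries, and in 3 of 29 colon ABX and 19 of 30 colon chow libraries. It was thus absent, at this depth, from most ABX libraries at either site. The log2 fold change was -7.53 ± 1.24 in the cecum (SE, adjusted p = 1.23e-07) and -6.86 ± 1.11 in the colon (adjusted p = 1.17e-07, same edgeR test). The size of the cecum change rested on few chow libraries: their mean share was 1.30%, or 0.622% without the highest library and 0.0744% without the 3 highest, and the log2 fold change was -5.30 (adjusted p = 3.21e-08) without the libraries with Dubosiella at 1% or more, an alternative added after seeing the data.

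Of the 9 member genera with enough counts to be tested (at least 3 counts in at least 5 libraries), 8 fell with antibiotics in the cecum, where 58% of all 255 genera tested were called lower. In the colon 8 of 9 fell as well, where 64.3% of 258 genera were called lower. None was called higher at either site under total counts, where 33.3% of genera in the cecum and 16.7% in the colon were called higher. The median log2 fold change of the members tested was -5.66 in the cecum, beside -2.87 over all genera tested. In the colon it was -4.45, or -5.19 with genera at 0 set to their limit, beside -3.62 over all genera. A genus usually entered this test through its chow libraries, so these counts describe the tested members and not all 17 names. As a second yardstick, the median in the cecum was 2.97 for 16 genera of the order Lactobacillales and -3.71 for 27 genera of Lachnospirales. In the colon it was 0.86 for 18 and -4.60 for 27 genera of these orders.

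Some smaller genera were at 0 counts in every ABX library of a site, so their folds are lower limits set by 3 counts over the whole group. Where tested, they entered the test of that site through chow libraries only and could only be called lower under total counts. Candidatus Stoquefichus was at least 257-fold lower in cecum ABX and at least 76.5-fold lower in colon ABX than in chow libraries of the same site (adjusted p = 7.72e-09 and 1.81e-08 in the edgeR test). Of its 778 cecum chow counts, 427 lay in replicate 6 of LD0/24, and without that library the cecum limit was 119-fold. Faecalibaculum, a close relative of Dubosiella, was at least 42.0-fold lower in colon ABX (adjusted p = 4.65e-05), or 13.8-fold without replicate 1 of LD12/12, which held 88 of its 129 colon chow counts. DESeq2 did not call it (adjusted p = 0.606), and its sign turned with centred log-ratios, as given below. Dielma was at least 18.2-fold lower in colon ABX (adjusted p = 5.77e-05). Both calls in the colon were lost when the diet difference was averaged within light cycles, an alternative added after seeing the data. Limits without a test rested on single libraries. Dielma was at least 9.90-fold lower in cecum ABX, or 4.78-fold without the chow library that held 16 of its 30 counts. Erysipelatoclostridiaceae with no genus was at least 91.8-fold lower in cecum ABX, or 6.47-fold without the library with 259 of 278 chow counts, and at least 23.1-fold lower in colon ABX, or 2.02-fold without the library with 65 of 71 chow counts. These limits without the highest library were added after seeing the data.

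The remaining members that fell were low but not at 0 in ABX libraries. Erysipelotrichaceae with no genus was found in 3 of 30 cecum ABX libraries at up to 8 counts, against 26 of 31 cecum chow libraries at up to 618, and in 5 of 29 colon ABX libraries at up to 9 counts, against 23 of 30 colon chow libraries at up to 200. Its log2 fold change was -5.66 ± 0.92 in the cecum and -5.19 ± 0.78 in the colon (SE, adjusted p = 8.26e-08 and 1.90e-08, edgeR). These ranges overlapped at their low ends, as they did for the next genera. Catenibacterium, a cecum genus here, had 43 counts in 2 cecum ABX libraries and 604 counts in 28 cecum chow libraries (log2 fold change -5.81 ± 0.71, adjusted p = 2.99e-11). Both ABX libraries with the genus lie outside the sets of libraries, and the 28 cecum ABX libraries inside sets held 0. All 31 cecum chow libraries lie outside sets. Diet and set membership thus cannot be told apart for this genus, a limit that bears on the other cecum members as well. The 2 ABX libraries, both of LD24/0, had 12 and 31 counts, within the 8 to 58 counts of the 6 cecum chow libraries of that light cycle. Faecalibaculum had 2 counts in 1 cecum ABX library and 376 counts in 12 cecum chow libraries (-4.78 ± 0.79, adjusted p = 1.48e-07). Absiella, a genus of gut anaerobes, had 8 counts in 3 cecum ABX and 154 counts in 7 cecum chow libraries (-3.32 ± 0.86, adjusted p = 0.000343), and 9 counts in 2 colon ABX and 156 counts in 12 colon chow libraries (-3.96 ± 0.83, adjusted p = 2.07e-05). The 2 genera that did not pass were Holdemanella in the cecum and Erysipelotrichaceae UCG-003 in the colon, UCG-003 with 65 counts in 8 ABX and 69 counts in 8 chow libraries (0.34 ± 0.98, adjusted p = 0.829).

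The fold changes of the rarer members depended on the scaling. With centred log-ratios (each count set against the geometric mean of its library), where the median of all genera moved by 2.48 in the cecum and 3.93 in the colon, the colon changes were 0.05 for Absiella, 0.65 for Faecalibaculum and 0.71 for Dielma, against falls under total counts. With this scaling 6 of the 9 colon members were called, 4 as lower and 2 as higher with antibiotics: Dielma (adjusted p = 0.0477, limma) and Erysipelotrichaceae UCG-003, at 1.60 (adjusted p = 0.000530). DESeq2 called 5 of the 9 colon members, all lower, against 8 under total counts. Turicibacter, Dubosiella, Candidatus Stoquefichus and Erysipelotrichaceae with no genus kept a negative change at both sites under total counts, TMMwsp factors (edgeR's trimmed mean of ratios between libraries), DESeq2 size factors and centred log-ratios. Over all genera called in the colon, 79.4% were lower under total counts, 64.4% under TMMwsp factors, 66.7% under DESeq2 and 46.2% under centred log-ratios.

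**Figure D2:**
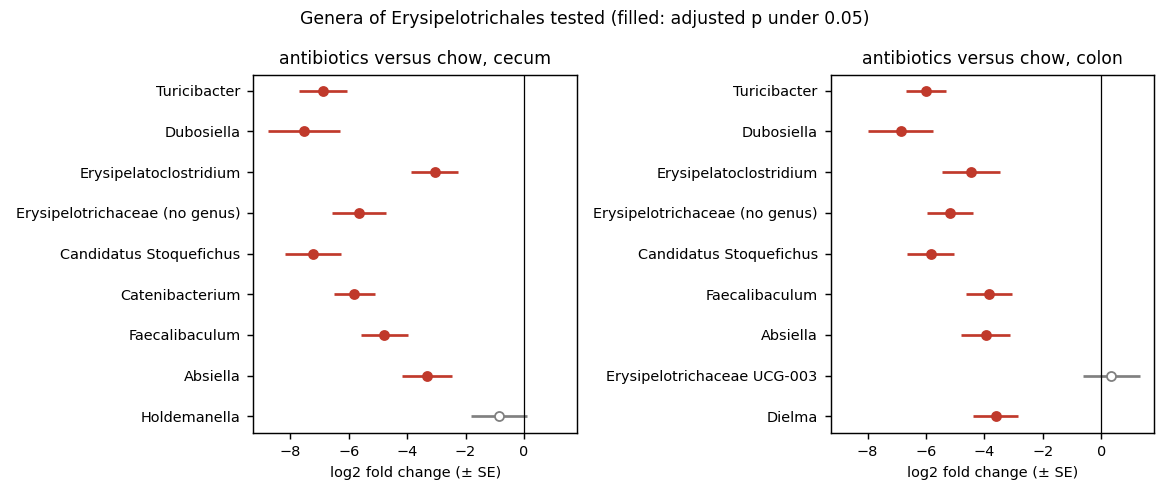
Log2 fold change of antibiotics over chow with its SE (x axis) for each member genus tested (y axis), cecum left and colon right, with filled points for an adjusted p under the threshold. All filled points lie below 0; points of genera at 0 counts in the ABX group depend on the prior count and are no limits, and with centred log-ratios Absiella, Faecalibaculum and Dielma had colon changes of 0.05, 0.65 and 0.71, with Dielma and Erysipelotrichaceae UCG-003 (1.60) called higher.

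Single variants were tested in the same way. In the cecum 20 of the 21 variants tested fell with antibiotics and 1 rose, where 71.4% of all 1246 variants tested were called lower and 23.6% higher. In the colon 17 of 19 fell and 1 rose, where 76.9% of 1222 were called lower and 10.1% higher. The variant calls depended on the method more than those of genera. In the cecum DESeq2 called 13 of the 21 variants, centred log-ratios 7 and the average within light cycles 8. In the colon these settings called 6, 6 and 5 of the 19, and 3 of the 6 called with centred log-ratios were higher with antibiotics. Under centred log-ratios 2 of the 21 cecum calls and 7 of the 18 colon calls had the opposite sign. All 7 Dubosiella variants tested in the cecum and all 4 in the colon fell under total counts, with log2 fold changes between -2.87 and -7.42 and between -4.53 and -6.56. DESeq2 called 4 of the 7 and 3 of the 4 lower, and centred log-ratios 1 at each site. The commonest Turicibacter variant had a log2 fold change of -6.78 ± 0.93 in the cecum and of -5.99 ± 0.77 in the colon (SE, adjusted p = 1.68e-09 and 3.30e-10, edgeR).

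The variant called higher at both sites is variant 4 of Erysipelatoclostridium, ranked by counts in its genus and picked out after its values were seen. It made up all 219 Erysipelatoclostridium counts of the cecum ABX libraries, where it was present in 19 of 30 at 3 to 23 counts, against 0 of 31 cecum chow libraries. Its log2 fold change there was 5.31 ± 0.82 (SE, adjusted p = 1.64e-07, edgeR). The variant entered this cecum test through ABX libraries only and could only be called higher with antibiotics. No other variant of the genus was detected in cecum ABX libraries, while cecum chow libraries held up to 934 counts of the others. The genus as a whole had a log2 fold change of -3.07 ± 0.79 (SE, adjusted p = 0.000308), although it was found in 19 of 30 ABX and 20 of 31 chow libraries with medians of 7 and 3 counts. With centred log-ratios that change was -0.05 (adjusted p = 0.938).

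In the colon its test and its counts pointed opposite ways. The variant summed to 15 counts in 4 of 29 ABX libraries and to 84 counts in 4 of 30 chow libraries, yet the model with an additive light term gave a log2 change of 1.29 ± 0.56 (SE, adjusted p = 0.0282). The 4 chow libraries, replicates 3 to 6 of LD8/16, had 24, 16, 21 and 23 counts. These 4 share a set of low-level variants with replicates 1 to 4 of cecum ABX at LD0/24, which had 17, 23, 14 and 19 counts. All 8 libraries of that set held the variant, as did 8 of 8 and 7 of 8 libraries of the sets that span cecum ABX at LD12/12 to LD24/0. The set of 8 that spans cecum ABX at LD0/24 and LD8/16 held none. The part of these sets in the difference between diets was not tested, since all cecum chow libraries lie outside them.

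Few members differed between cecum and colon on chow. There, 2 of 12 genera tested were higher in the cecum, where 13.6% of all 272 genera tested were called higher. None was lower, where 29.8% were called lower. Both were found in the cecum alone. With 0 counts in colon chow, they entered this test through cecum libraries only and could only be called higher there. Catenibacterium was present in 28 of 31 cecum chow libraries with a median of 17 and a highest count of 103, against 0 counts in all 30 colon chow libraries, at least 185-fold higher in the cecum (adjusted p = 4.28e-12, edgeR). All 31 cecum chow libraries lie outside the sets of libraries and 29 of 30 colon chow libraries inside them, so site and set membership cannot be told apart in this comparison beyond 1 library, which held 0. Holdemanella was present in 9 of 31 cecum chow libraries at up to 18 counts, against 0 in colon chow, at least 23.5-fold higher (adjusted p = 1.06e-05).

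The 2 main genera did not pass the test between sites. The cecum over colon log2 fold change on chow was 0.47 ± 0.59 for Turicibacter (SE, adjusted p = 0.568) and 1.49 ± 1.71 for Dubosiella (adjusted p = 0.548). For Dubosiella the sign itself rested on a few libraries: without the 4 libraries where it reached 1% or more, the change was -0.77. Among 28 variants tested on chow, 6 differed between sites, where 26.1% of all 1707 variants tested were called. They included 3 minor Turicibacter variants, higher in the cecum by 3.95 to 4.34 on the log2 scale, although the commonest Turicibacter variant and the genus did not pass. DESeq2 called 2 of the 28, and centred log-ratios and the average within light cycles 3 each. With TMMwsp factors or centred log-ratios, 5 of 12 genera were called higher in the cecum, where the median of all genera moved by 0.74 and 0.67. The share of lower calls among all genera called was 68.6% under total counts, 49.0% under TMMwsp factors, 55.6% under DESeq2 and 39.7% under centred log-ratios.

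With antibiotics, 3 of 6 genera differed between sites, where 46% of 215 genera were called. Of all genera called, 43.4% were lower in the cecum under total counts, 53.5% under TMMwsp factors, 38.7% under DESeq2 and 58.3% under centred log-ratios. Erysipelatoclostridium was higher in the cecum by 2.45 ± 0.65 (SE, adjusted p = 0.000900), with a median of 7 counts in cecum ABX and 0 in colon ABX libraries. Holdemanella had 77 counts in 8 of 30 cecum ABX libraries and 0 in 29 colon ABX libraries (at least 23.2-fold higher, adjusted p = 0.000112). It entered this test through cecum libraries only and could only be called higher there. Erysipelotrichaceae UCG-003 was lower in the cecum, by -1.94 ± 0.76 (adjusted p = 0.0323), with 5 counts in 2 cecum libraries and 65 counts in 8 colon libraries. No set of libraries holds both cecum ABX and colon ABX libraries, so site and set membership cannot be told apart in these calls. Holdemanella was found in 6 of the 8 libraries of 1 cecum ABX set, and UCG-003 in 7 of the 8 libraries of 1 colon ABX set. Averaging the site difference within light cycles instead of using an additive light term, an alternative added after seeing the data, called 0 of the 6 genera with edgeR, and 0 had an unadjusted p under 0.05. DESeq2 with the additive term called 1. Of 4 variants tested, 2 differed between sites, where 47% of 598 variants were called: variant 4 of Erysipelatoclostridium, higher in the cecum, and variant 1 of UCG-003, lower.

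Holdemanella reached 77 counts in ABX and 77 counts in chow cecum libraries, with 1 of its 5 variants found on both diets. That variant, its most abundant, occurred in 1 ABX and 6 chow libraries and had a log2 fold change of -2.70 ± 0.80 with antibiotics (SE, adjusted p = 0.00140, edgeR), and of 0.07 with centred log-ratios. Its variants 2 and 3 occurred in 3 ABX libraries each and in no chow library. The genus as a whole had a log2 change of -0.86 ± 0.95 (adjusted p = 0.388).

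Single libraries carried most of the Dubosiella counts. In cecum chow at LD16/8, replicate 2 held 13738 Dubosiella counts, 21.7% of its total (95% interval 21.4% to 22.0%), while the other 5 libraries of its group held 7 to 26 counts. At LD24/0, replicate 1 held 9189 counts (15.0%, interval 14.7% to 15.3%) and replicate 3 held 1139 counts (1.60%, interval 1.51% to 1.69%), while the other 4 held 9 to 61. These 3 libraries thus stood far above the rest of their groups. In colon chow the highest was replicate 1 of LD12/12, with 2969 counts (4.58%, interval 4.42% to 4.74%), against 0 to 486 counts in the rest of its group.

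The mean share of the genus followed these libraries. It was 0.00162% in cecum ABX and 1.30% ± 4.64 in cecum chow libraries (SD, n = 31), whose median was 0.0358% and whose mean without the 3 highest was 0.0744%. In the colon it was 0.00171% in ABX and 0.277% ± 0.840 in chow libraries (SD, n = 30), with a chow median of 0.0136%. The typical chow library held little Dubosiella: the median counts by light cycle, LD0/24 to LD24/0, were 0, 82, 51, 18.5 and 37 counts in the cecum and 120, 8.5, 148, 1 and 3 counts in the colon.

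**Figure D3:**
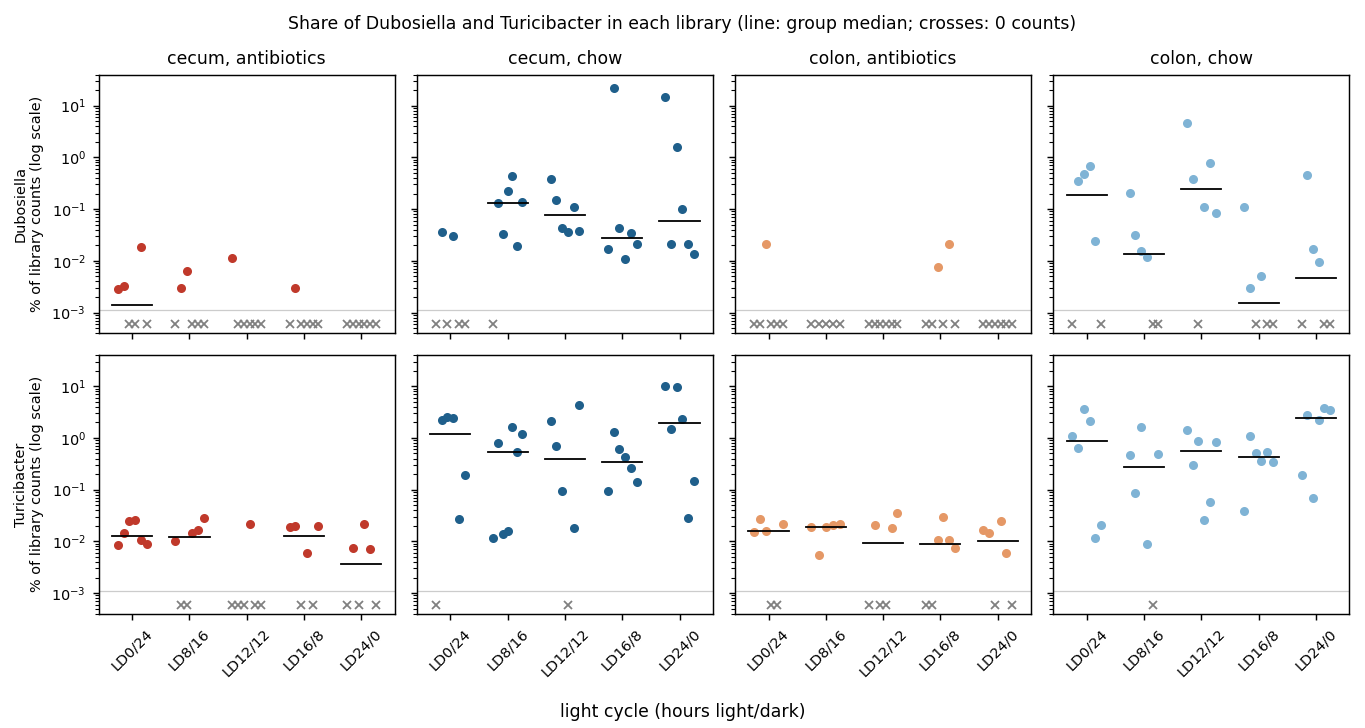
Share of library counts on a log scale (y axis) for Dubosiella (top) and Turicibacter (bottom) by light cycle (x axis), in cecum ABX, cecum chow, colon ABX and colon chow libraries from left to right; points are libraries, crosses libraries with 0 counts and lines group medians. Single Dubosiella points at 21.7% and 15.0% stand far above the rest of cecum chow at LD16/8 and LD24/0, and ABX points reach at most 0.0357% (Turicibacter).

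The high libraries were not rich in Dubosiella alone. Replicate 1 of cecum chow at LD24/0 also held the highest Turicibacter share, 10.3%, and replicate 3 the next, 9.53%. The order as a whole thus took 25.5% and 11.3% of these libraries. Faecalibaculum had its highest counts in the libraries with the most Dubosiella of each site: 292 in replicate 2 of cecum chow at LD16/8 and 88 in replicate 1 of colon chow at LD12/12, against 0 to 20 in every other library. Allobaculum, a mouse gut genus, was found in 4 libraries, and 3 of these, with 71, 20 and 14 counts, were the 3 high-Dubosiella libraries of the cecum.

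The variants of Dubosiella fell into 2 library types. In the 12 chow libraries with at least 200 Dubosiella counts, variants 1, 3 and 5 (ranked by counts in the genus) were always present, at 42.2% to 55.1%, 11.3% to 20.7% and 4.48% to 9.29% of the genus. Variant 2 was present in 4 of the 12, at 17.1% to 26.6%, and variant 4 in the other 8, at 19.1% to 25.5%. No library held both. Across all 120 libraries variant 2 occurred in 11, variant 4 in 13 and both in 0. Dubosiella was found in 55 libraries and either variant in 24, and libraries with neither held at most 29 Dubosiella counts. All 14 libraries with at least 100 Dubosiella counts held variant 2 or variant 4. Replicate 5 of cecum chow at LD24/0 and replicate 2 of cecum ABX at LD16/8 held variant 2 alone, at 12 and 2 counts.

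Both types occurred at both sites and within the same groups. Variant 2 was found in 1 cecum ABX, 6 cecum chow and 4 colon chow libraries, and variant 4 in 6 cecum chow and 7 colon chow libraries. The 2 richest libraries differed in type: replicate 2 of cecum chow at LD16/8 held 3656 counts of variant 2 and 0 of variant 4, whereas replicate 1 at LD24/0 held 1971 counts of variant 4 and 0 of variant 2. Within colon chow at LD12/12, replicates 1, 2 and 4 carried variant 4 (676, 50 and 23 counts) and replicates 5 and 6 carried variant 2 (92 and 8 counts). Within cecum chow at LD24/0, replicates 1 and 3 carried variant 4 (1971 and 281 counts) and replicates 4 and 5 variant 2 (13 and 12 counts). Ratios were taken only in the 12 chow libraries with at least 200 Dubosiella counts. The ratio of variant 1 to variant 4 was 1.96 to 2.57 over the 8 of these that held variant 4. That of variant 1 to variant 2 was 2.02 to 3.15 over the 4 that held variant 2.

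**Figure D4:**
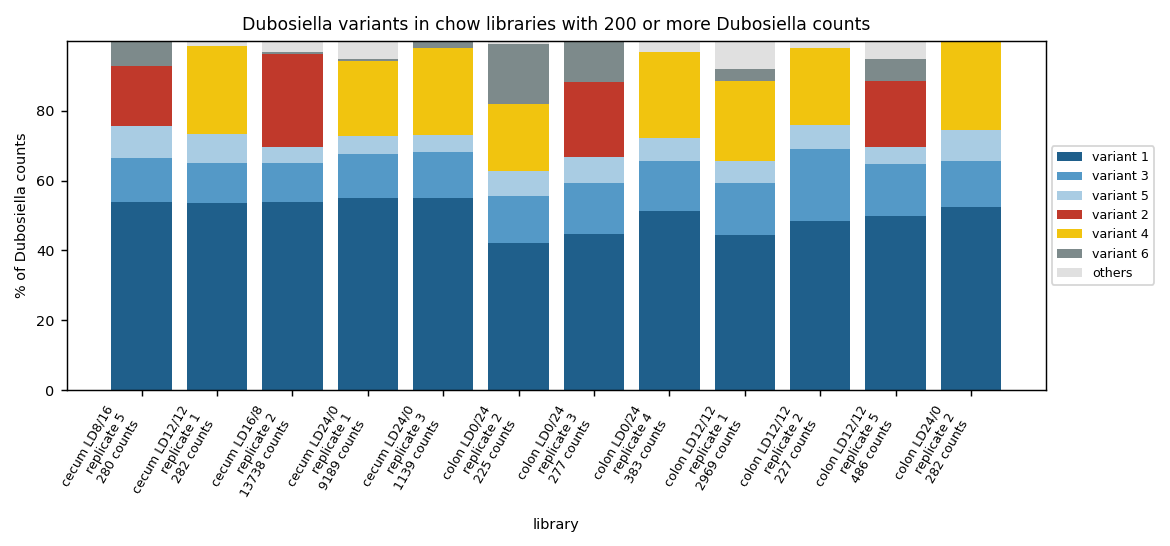
Percent of Dubosiella counts (y axis) in each variant for the 12 chow libraries with at least 200 Dubosiella counts (x axis). Variants 1, 3 and 5 appear in every bar, and each bar holds variant 2 (4 libraries) or variant 4 (8 libraries), never both.

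Turicibacter was dominated by a single variant. Its variant 1 held 91.8% of the genus over all libraries and 84.2% to 100% in each of the 36 libraries with at least 200 Turicibacter counts. Variants 2 and 3 followed in 17 and 15 of these libraries, at up to 7.36% and 4.61%. The share of the genus in chow libraries ranged widely within every light cycle. Beside the libraries of cecum chow at LD24/0 named above, others reached 1% and at least 3 times their group median. In cecum chow they were replicates 6 and 1 of LD12/12 (4.36% and 2.11%), replicate 5 of LD8/16 (1.62%) and replicate 2 of LD16/8 (1.31%). In colon chow they were replicate 3 of LD0/24 (3.64%) and replicate 3 of LD8/16 (1.61%). By light cycle, LD0/24 to LD24/0, the median counts were 840, 359, 242.5, 226 and 1189 in cecum chow and 527.5, 175.5, 344.5, 260 and 1428.5 in colon chow. The highest medians were at LD24/0 at both sites, but the lowest and highest libraries there, 16 and 6807 counts in the cecum and 41 and 2275 in the colon, spanned most of the genus's range, and the genus did not pass the test (adjusted p over all light cycles 0.393 in the cecum and 0.449 in the colon).

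Calls between light cycles are given beside the share of all genera tested that were called. On chow, 1 of 9 genera tested in the cecum was called over all light cycles, where 15.7% of 185 genera were called, and 2 of 9 in the colon, where 22.1% of 222 were called. With antibiotics it was 2 of 3 in the cecum (17.7% of 158 genera) and 1 of 3 in the colon (31.9% of 144).

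The cecum chow call was Dubosiella (adjusted p = 0.00579, edgeR's quasi-likelihood test over 5 light cycles). No single contrast against LD12/12 called it, or any other member (0 of 9 in each, where 0%, 0%, 0% and 3.78% of all genera were called at LD0/24, LD8/16, LD16/8 and LD24/0). Its log2 changes were -3.50 ± 1.75 at LD0/24, 0.14 ± 1.52 at LD8/16, 4.84 ± 1.85 at LD16/8 and 4.46 ± 1.82 at LD24/0 (SE, adjusted p = 0.327, 1, 0.143 and 0.125, and unadjusted p = 0.0509, 0.927, 0.0122 and 0.0183). The high means at LD16/8 and LD24/0, 3.64% and 2.79%, stand against medians of 0.0276% and 0.0599%, below or near the 0.0769% of LD12/12. Without the libraries at 1% or more, an alternative added after seeing the data, the call was lost (adjusted p = 0.264), as it was with centred log-ratios (0.164). In the colon Dubosiella had an adjusted p of 0.0764. Of the 7 Dubosiella variants tested in cecum chow, 6 were called by edgeR, among 8 of 20 variants of the order, where 19% of all 925 variants tested were called. DESeq2 called 0 of the 20, of which 1 had an unadjusted p under 0.05.

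In colon chow 6 of 18 variants were called over all light cycles, where 16.5% of 1055 variants were called. They were Turicibacter variants 2 and 3, Dubosiella variant 5, Erysipelatoclostridium variant 1, and 1 variant each of Erysipelotrichaceae with no genus and of UCG-003. DESeq2 called 0 of the 18, of which 1 had an unadjusted p under 0.05. With antibiotics 1 of 2 variants was called in the cecum, Erysipelatoclostridium variant 4 (33.8% of 402 variants called), and 1 of 2 in the colon, UCG-003 variant 1 (29.4% of 306).

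Faecalibaculum was called in the colon on chow (adjusted p = 0.0458), with 88 of its 129 counts in 1 library. Without that library the adjusted p was 0.280.

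The other genera called between light cycles had at most 23 counts in a library there. Erysipelotrichaceae UCG-003, a genus known from sequences, had 8, 8, 10, 8, 7 and 11 counts in the 6 colon chow libraries of LD12/12 and 8 and 9 counts in replicates 1 and 2 of LD8/16. These 8 libraries are exactly one set, and no other colon chow library held the genus. In colon ABX it had 10, 6 and 4 counts in replicates 1 to 3 of LD0/24 and 16, 8, 6, 5 and 10 counts in 5 of the 6 libraries of LD24/0. Of these 8 libraries, 7 lie in a single set of 8.

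For UCG-003 the adjusted p over all light cycles was 0.00476 in colon chow and 0.00549 in colon ABX (edgeR), and DESeq2 called neither (adjusted p = 0.122 and 0.0778). On chow UCG-003 was lower at LD16/8 and LD24/0 than at LD12/12 (adjusted p = 0.0491 and 0.0157, with 0 counts in both, where 3.6% and 14% of genera were called lower), and with antibiotics higher at LD0/24 and LD24/0 (adjusted p = 0.0466 and 0.0222, with 0 counts at LD12/12, where 11.1% and 11.8% were called higher). With 0 counts on 1 side, each of these contrasts could be called only in the direction given. DESeq2 gave adjusted p-values of 0.152 for LD24/0 on chow and of 0.325 and 0.126 for LD0/24 and LD24/0 with antibiotics, and none for LD16/8. The edgeR calls of LD16/8 on chow and LD0/24 with antibiotics were lost without any 1 replicate number, and that of LD24/0 with antibiotics without number 1, 2, 4, 5 or 6.

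The counts also differed between sets within a light cycle. In colon chow at LD8/16, the 2 libraries of that set held 8 and 9 counts of UCG-003 and the 4 of another set held 0. In colon ABX at LD0/24, the 2 libraries of the set shared with LD24/0 held 10 and 6 counts, and the 4 of other sets held 4, 0, 0 and 0. With sets as a blocking factor, the adjusted p over light cycles was 1 in colon chow and 0.822 in colon ABX. That block compares 3 of the 4 differences between light cycles. In colon chow no set joins LD8/16 or LD12/12 with the other light cycles, so set and light cycle cannot be told apart in the contrasts of LD16/8 and LD24/0 with LD12/12.

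**Figure D5:**
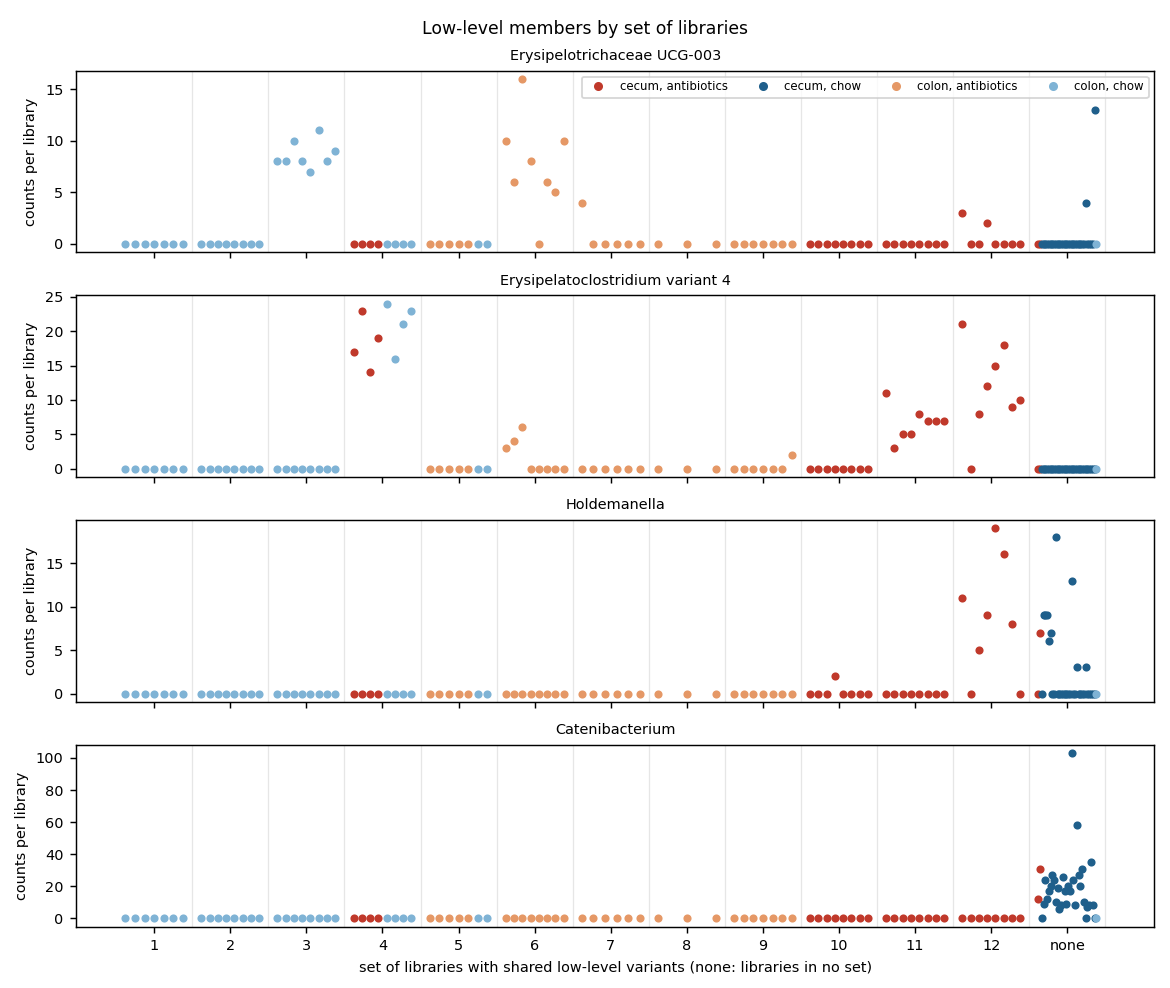
Counts per library (y axis) of 4 low-level members by set of libraries (x axis, with the libraries in no set at the right), coloured by site and diet. UCG-003 and the Erysipelatoclostridium variant are found in most or all libraries of some sets and in none of others, whereas Catenibacterium lies entirely outside the sets, in cecum libraries.

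In cecum ABX the 2 calls were Erysipelatoclostridium (adjusted p = 0.0261), which here is the single variant described above, and Holdemanella (adjusted p = 0.00759). Erysipelatoclostridium was at 0 in all 6 libraries of LD8/16, against 3 to 11 counts at LD12/12. Holdemanella had 19, 16, 8 and 7 counts in 4 of 6 libraries of LD24/0 and 0 in all 6 of LD12/12, and 6 of its 8 positive cecum ABX libraries lie in the set that spans LD16/8 and LD24/0. Within LD0/24, Erysipelatoclostridium had 17, 23, 14 and 19 counts in the 4 libraries of one set and 0 in the 2 libraries of the set that also holds all 6 of LD8/16. With sets as a blocking factor the adjusted p was 1.00 for Erysipelatoclostridium and 0.964 for Holdemanella. No set joins LD0/24 or LD8/16 with the other 3 light cycles, so the difference of LD8/16 from LD12/12 cannot be told apart from that of their sets. DESeq2 did not call Holdemanella (adjusted p = 0.0873), and the Erysipelatoclostridium call was lost without replicate number 1, 2, 3 or 4 (adjusted p = 0.0791 to 0.128). Catenibacterium was seen with antibiotics in replicates 5 and 6 of cecum LD24/0 alone, at 12 and 31 counts, and these are the 2 cecum ABX libraries outside all sets.

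Where differences between comparisons were tested directly, 1 of 13 member genera differed between sites in its change with antibiotics (42.9% of 322 genera were called). It was the Clostridium innocuum group, whose only counts were 2, 7 and 9 in cecum ABX at LD0/24 and 9, 4 and 6 in colon chow at LD8/16 (log2 difference 3.44 ± 0.71, adjusted p = 5.88e-05, and -0.21 with centred log-ratios). All 6 libraries belong to 1 set. The change with light cycle differed between antibiotics and chow for 1 of 9 genera in the colon, UCG-003 (adjusted p = 0.000257, 11.6% of 258 genera called, and 0.0577 with DESeq2). In the cecum it differed for 3 of 9, Dubosiella, Holdemanella and Catenibacterium (adjusted p = 0.00393, 0.0156 and 0.0404, 11% of 255 genera called). The Dubosiella call was lost without the libraries at 1% or more (adjusted p = 0.154) and with centred log-ratios (0.103). The Holdemanella call was lost without replicate number 2, 3 or 5 (0.0596 to 0.0733). The Catenibacterium call was lost without any 1 of replicate numbers 1 to 6 (0.0737 to 0.252) and with centred log-ratios (0.599).

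Other genera also had single rich libraries. Erysipelatoclostridium reached 1.53% (934 counts, interval 1.43% to 1.63%) in replicate 3 of cecum chow at LD16/8, where the other 5 libraries held 0 to 36 counts. Replicate 6 of cecum chow at LD0/24 was rich in 3 minor taxa at once: Erysipelotrichaceae with no genus at 618 counts (1.01%, interval 0.936% to 1.09%), Candidatus Stoquefichus at 427 and Erysipelatoclostridiaceae with no genus at 259. These are 26.7%, 42.2% and 74.2% of the counts of each in all 120 libraries. In all 10 libraries with at least 50 counts of Erysipelotrichaceae with no genus, a single variant held 90.1% or more of them: variant 1 in 4 libraries, variant 2 in 5 and variant 3 in 1. Replicate 6 of cecum chow at LD0/24 held 0 Dubosiella and 116 Turicibacter counts, so it was high in other members of the order than the libraries above.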

How the data were processed

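The authors deposited a table of raw counts per 16S sequence variant and library, with a taxonomy table. Per the labels' protocols, a stool DNA kit was used and SMRTbell libraries were made; on primers, denoising, read filters and taxonomy database nothing is given in the sources used here. Of all variants in the table, 629 have no taxonomy entry and held at most 0.441% of a library. Members and lists were chosen with earlier results of these data known. Genus counts are sums over variants of one genus name (or of the family, without a genus), named where tested in a fit or at 0.1% of a library; libraries are named at 1% or more and 3 times the group median. A genus or variant entered a fit with at least 3 counts in at least 5 libraries. edgeR 4.0.16 (robust quasi-likelihood, total count as library size, Benjamini-Hochberg over all features tested, threshold 0.05) was run in R 4.3.3. Comparisons of diet and site took light cycle as a factor, and light cycles were tested within site and diet. Alternatives were TMMwsp, DESeq2 1.42.0 and limma 3.58.1 on centred log-ratios (0.5 added), other filters, replicate and set blocks, and left-out libraries. The scripts were run on simulated counts with known changes and the same spread for every feature. Those counts held no sets of libraries, so they cannot show how the calls behave with such sets. No 2 libraries of a group were identical (smallest chi-square per degree of freedom 12.0 over 301 pairs). Same-numbered libraries did not deviate together in the median: correlations had medians of -0.018 between sites, -0.017 between diets and -0.037 between light cycles. The highest were 0.509, 0.149 and 0.337, and 10 of 59, 4 of 59 and 43 of 236 pairs were over 0.1. Whether some same-numbered libraries share a mouse is not known.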

Additional observations from a re-analysis of the deposited data

Results flagged for a closer look

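Dixon's criterion was applied to the shares of the order, of Dubosiella and of Turicibacter in groups of 5 to 7 libraries, in 56 tests. In 20 of these tests a library was set apart from the rest, where chance marks about 5% of tests on normally distributed values. The tests are not independent, since the order includes both genera and the same library can be counted for each. These shares are far from normally distributed: where all other libraries of a group were at 0, any single count stands apart. Shares below are percent of a library's counts.

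For the order as a whole the libraries set apart were replicate 2 of cecum chow at LD16/8 (23.6%), replicate 1 of colon chow at LD12/12 (6.34%) and replicate 2 of colon chow at LD16/8 (1.15%).

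For Dubosiella on chow they were replicate 2 of cecum LD16/8 (21.7%), replicate 1 of cecum LD24/0 (15.0%) and replicate 1 of cecum LD12/12 (0.386%). In the colon they were replicate 1 of LD12/12 (4.58%), replicate 2 of LD24/0 (0.458%), replicate 1 of LD8/16 (0.206%) and replicate 1 of LD16/8 (0.111%). With antibiotics they were replicates 5, 1 and 2 of cecum LD0/24, LD12/12 and LD16/8 (0.0186%, 0.0116% and 0.00299%), and replicates 3 and 5 of colon LD0/24 and LD16/8 (0.0211% and 0.0210%), all of which rest on at most 14 counts.

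For Turicibacter they were replicate 4 of cecum ABX at LD12/12 (0.0214%) and at LD24/0 (0.0219%), replicate 4 of colon ABX at LD16/8 (0.0291%), replicate 3 of colon chow at LD8/16 (1.61%) and, as the lowest of its group, replicate 2 of colon ABX at LD8/16 (0.00537%).

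Between groups, 5 differences in change passed the test of the difference itself. The change with antibiotics differed between cecum and colon for the Clostridium innocuum group (adjusted p = 5.88e-05, edgeR). The change with light cycle differed between antibiotics and chow in the colon for Erysipelotrichaceae UCG-003 (adjusted p = 0.000257), and in the cecum for Dubosiella (0.00393), Holdemanella (0.0156) and Catenibacterium (0.0404). Without the libraries where Dubosiella reached 1% or more, its adjusted p was 0.154.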

How the results depend on the processing

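Limits come first. Reads are relative counts of libraries not tied to mice, rare members rest on few counts, and the sets of libraries cross the groups. Of 1678 recomputed values for single members, 1398 kept direction and call, 237 lost the call, 20 gained it and 23 changed sign. The cause was not tested. Without a filter more members enter the tests, which bears on their counts by construction.

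Members called are counted here, the reported count after each "against". DESeq2 called, for diet in the colon, 5 genera against 8 and 6 variants against 18, and 13 variants against 21 in the cecum. Between sites it called 1 genus against 3 and 1 variant against 2 with antibiotics, and 2 variants against 6 on chow. Over light cycles it called 1 genus against 2 in colon chow and in cecum ABX (also 1 against 2 in the contrasts with LD12/12), 0 against 1 in colon ABX (contrasts 0 against 2), and 0 variants against 6, 1 and 8 in colon chow, colon ABX and cecum chow. It called 0 differences against 1 between diets in the colon's light cycle change. In each of these tests over all light cycles with 0 calls, 1 member had an unadjusted p under 0.05.

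TMMwsp factors called 5 genera against 2 between sites on chow, 1 contrast against 2 in colon ABX and 4 site by diet differences against 1. Centred log-ratios called 5 against 2 between sites on chow, 1 against 2 (contrasts 4 against 2) over light cycles in colon chow, 1 contrast against 2 in colon ABX, 0 against 1 in cecum chow (2 at an unadjusted p under 0.05), and 3 against 1, 2 against 1 and 1 against 3 for the differences by site, and by light cycle in colon and cecum. Among variants they called 6 against 18 and 7 against 21 for diet in colon and cecum, 3 against 6 between sites on chow, and 3 against 6 and 0 against 8 over light cycles in colon and cecum chow.

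Without a filter, genera called were 4 against 2 and 5 against 3 between sites (chow, ABX), 4 against 2, 2 against 1, 7 against 1 and 4 against 2 over light cycles (colon chow, colon ABX with 1 contrast against 2, cecum chow, cecum ABX), and 2 against 1 and 3 against 1 for differences by site and by colon light cycle. Variants were 40 against 21 for diet in the cecum, 5 against 2 between sites with antibiotics, and 38 against 6, 4 against 1, 75 against 8 and 9 against 1 over light cycles. With at least 10 counts, genera were 1 against 2 and 1 against 3 between sites, 0 against 2 in colon chow, 0 against 1 in colon ABX (contrasts 0 against 2 in both), 1 against 2 in cecum ABX and its contrasts, and 0 against 1 by site, with 1, 0 and 1 at an unadjusted p under 0.05 in the tests with 0. Variants were 1 against 2 between sites with antibiotics, 0 against 1 in colon ABX and 2 against 8 in cecum chow.

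Averaging within light cycles gave 0 genera against 3 and 0 variants against 2 between sites with antibiotics, 3 variants against 6 on chow, and 5 against 18 and 8 against 21 for diet in colon and cecum. Without the libraries with Dubosiella at 1% or more, light cycle calls were 1 against 2 in colon chow and its contrasts, 0 against 1 genera (0 at an unadjusted p under 0.05) and 2 against 8 variants in cecum chow, and 1 against 3 for the cecum difference between diets. Both settings were chosen after seeing the data. With library sets as a blocking factor, light cycles gave 0 against 2 in colon chow, 0 against 1 in colon ABX and 0 against 2 in cecum ABX, none at an unadjusted p under 0.05. Sets and light cycles overlap in part, and this block compares 3 of the 4 light cycle differences in each.

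Same-numbered libraries did not deviate together in the median. With the replicate block, light cycle calls were 0 against 1 in cecum chow, 0 contrasts against 2 in colon ABX, 1 against 2 in cecum ABX and its contrasts, 2 against 1 for the colon difference between diets, and 0 against 1, 1 against 8 and 0 against 1 variants in colon ABX, cecum chow and cecum ABX. In each of its tests over all light cycles with 0 calls, 1 member had an unadjusted p under 0.05.

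Leaving out each replicate number in turn gave, for diet, 8 genera and 17 to 21 variants in the cecum, and 7 to 8 and 12 to 17 in the colon. Between sites it gave 2 to 3 genera and 5 to 7 variants on chow, and 2 to 3 and 1 to 2 with antibiotics. Over light cycles it gave 1 to 2 genera and 3 to 8 variants in cecum chow, 1 to 3 and 1 to 4 in colon chow, 1 to 2 and 0 in cecum ABX, and 1 and 1 in colon ABX. Contrasts with LD12/12 gave 0 in cecum chow, 1 to 2 in colon chow, 1 to 2 in cecum ABX and 0 to 1 in colon ABX. Differences gave 0 to 2 by site, and 1 to 3 and 1 to 2 by light cycle in cecum and colon.

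Changes of sign under centred log-ratios came, for diet in the colon, to 0.0495 for Absiella, 0.71 for Dielma and 0.65 for Faecalibaculum. They came to 0.51, 0.16, 0.0754, 0.31, 0.36 and 0.83 for 6 of the 7 variants called there whose sign turned. For diet in the cecum they came to 0.41 for Holdemanella and 0.0669 for its variant 1, which is 1 of 2 such variants. Between sites they came to -0.21 for the innocuum group in its change with antibiotics, and on chow to 0.11 for Absiella and 0.30 for Dielma. With antibiotics the change between sites was -0.13 for Dubosiella (-0.16 to 0.78 when each replicate number was left out, lowest without replicate 1). Between sites on chow, Dubosiella was -0.25 without replicate 2 (highest 1.49 without another) and -0.77 without its high libraries. Erysipelatoclostridium was -0.0028 with the replicate block, -0.23 without replicate 3 and -0.76 without replicate 5 (highest 0.96). Without replicate 6, Absiella was 0.58 (lowest -1.94) and Erysipelotrichaceae with no genus -0.93 (highest 0.94). None of these between-site values had passed the test.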
